A study of Mus musculus with 16 samples.

Results

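The 9 genes described here control whether a cell enters the division cycle or leaves it. They are the D cyclins *Ccnd1*, *Ccnd2* and *Ccnd3*, their kinase partners *Cdk4* and *Cdk6*, the Cip/Kip inhibitors *Cdkn1a* (p21), *Cdkn1b* (p27) and *Cdkn1c* (p57), and the INK4 inhibitor *Cdkn2c* (p18). They were chosen by name for this role, with earlier results of these data known, and all 9 are among the 17721 genes of the deposited table. Each was followed over cell classes and over 3 places in the pubertal mouse mammary gland, the nipple, the duct and the terminal end bud (TEB), the club-shaped growing tip of a duct.

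D cyclins bind and switch on CDK4 or CDK6 when a growth signal arrives, and the active pair phosphorylates the retinoblastoma protein, which frees E2F factors to transcribe the genes of DNA replication. INK4 proteins such as p18 block CDK4 and CDK6 directly, whereas the Cip/Kip proteins chiefly inhibit CDK2 complexes and can also help assemble cyclin D with its kinase. In the mammary gland, cyclin D1 is known for its part in the growth of the milk-secreting lobules, p21 is the best known target of p53, and p57 is made from an imprinted gene that is expressed mainly from the maternal copy.

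Single fragments were dissected from mammary glands, 4 from nipples, 6 from ducts and 6 from TEBs, and their cells were sorted one by one into the wells of plates for 3' SMART-seq with unique molecular identifiers (UMIs). The labels give the strain of all 16 fragments as C57BL/6, and the study describes the mice of this experiment as 5 weeks old and *K14-Cre/R26-mTmG*, that is, with Cre under the keratin 14 promoter and a fluorescent membrane reporter. Its methods also name wild-type mice for such dissections, no treatment was given, and the labels do not say which mouse a fragment came from, so p-values measure the spread between these fragments, which need not be separate animals. All 4 nipple labels carry numbers that begin with 2 and no other fragment does, so whatever that digit marks cannot be told apart from the nipple. Of 1419 deposited cells, 1318 passed the limits on spike-in RNA, UMIs and genes (342 nipple, 501 duct, 475 TEB).

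Cells were clustered without the 9 genes and named from marker genes. This gave 294 basal-like cells (97 nipple, 115 duct, 82 TEB), 426 estrogen receptor-positive (ER+) luminal-like cells (43, 211 and 172), 178 estrogen receptor-negative (ER-) luminal-like cells (48, 81 and 49), 252 fibroblast-like cells (116, 38 and 98) and 78 myeloid-like cells (12, 25 and 41). UMIs were summed over the cells of a class in a fragment, and a level is given as CPM, the UMIs of the gene after scaling that sum to a total of 1000000 gene UMIs. Each sum needed 5 cells, which left 16 fragments in the basal-like and ER+ classes, 14 in the ER- class, 13 in the fibroblast-like and 7 in the myeloid-like class. Total gene UMIs ran from 1842105 to 5197164 per fragment.

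The basal-like class was not 1 cluster. All but 1 of the nipple and duct basal-like cells came from a cluster led by *Krt14*, *Cnn1*, *Krt17* and *Krt5*, whereas 81 of the 82 TEB basal-like cells came from another, which had *Fabp5* and *Il17b* among its 10 leading genes and none of the 8 basal markers. The summed level of the 8 basal markers was 12499 to 14094 CPM in nipple, 15553 to 19872 in duct and 2809 to 5711 in TEB fragments. *Krt14* averaged 5892, 4356 and 594 CPM, and *Trp63* 21.2, 17.9 and 73.6 CPM, in the same order. The median UMI count of a basal-like cell was 21458 in nipple, 23039 in duct and 43900.5 in TEB fragments. Nipple and duct basal-like cells thus lay mostly in the same cluster, and TEB cells stood apart from both in each of these values. The part of these values in the location differences of basal-like cells given here was not tested.

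In basal-like cells the mean levels of *Ccnd2*, *Cdk4* and *Cdkn1b* were lowest in the nipple and highest in the TEB. Both steps, nipple to duct and duct to TEB, passed for *Ccnd2* and *Cdk4*, for *Cdk4* with the first at the threshold, and neither passed for *Cdkn1b*. *Ccnd1* and *Cdkn1c* were high in TEB fragments alone, *Cdkn1a* was lowest in the nipple, and *Ccnd3* had like means in the 3 places. Of the 9 members 7 passed the filter on low counts, and 6 of these 7 passed the test across the 3 locations (edgeR's quasi-likelihood test, Benjamini-Hochberg adjusted p under 0.05 over 7316 genes), where 20.6% of all tested genes did. The 2 members below the filter were *Cdkn2c* and *Cdk6*.

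**Figure D1:**
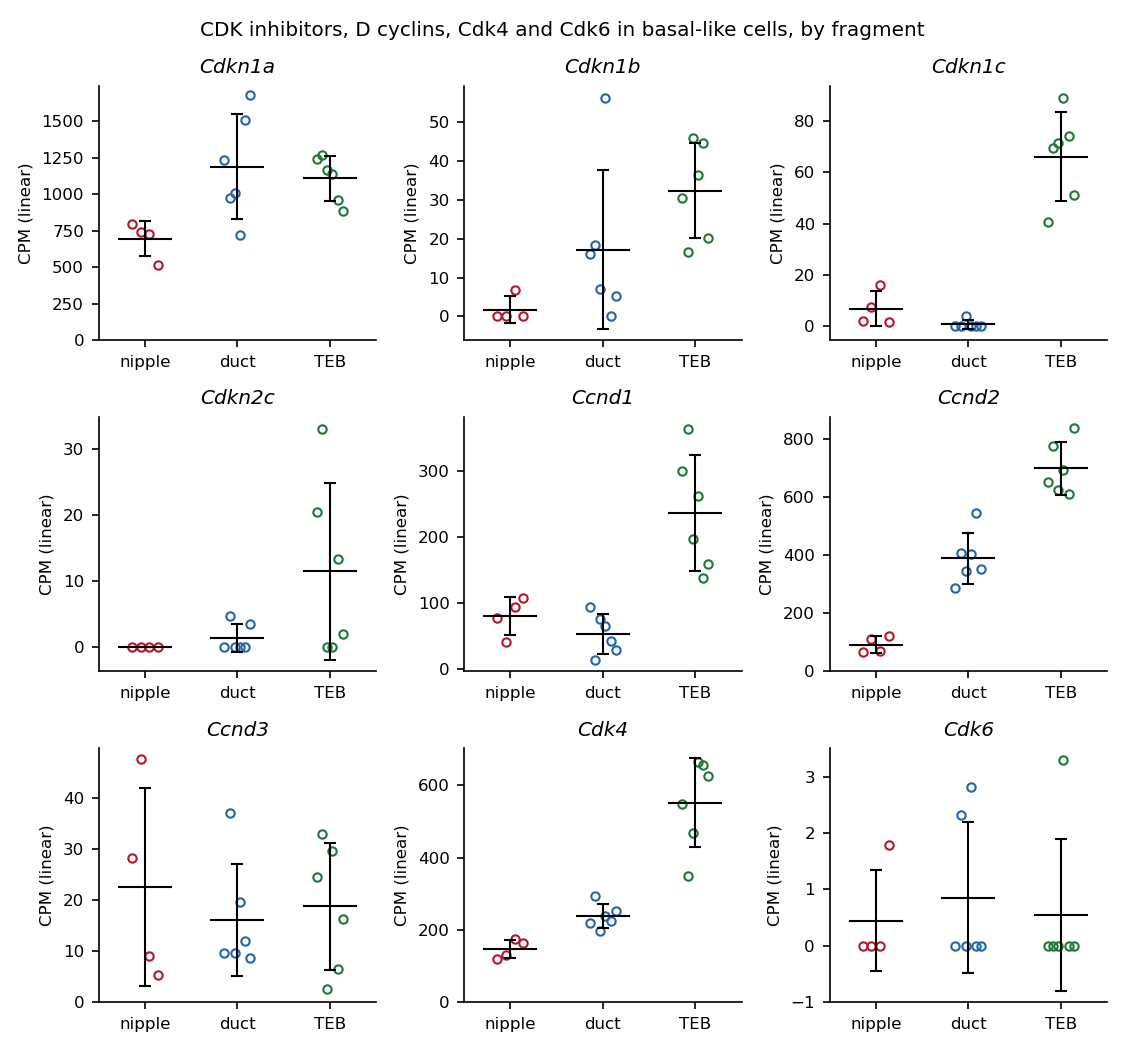
Level of each of the 9 genes in basal-like cells (y axis, CPM, linear) in every nipple, duct and TEB fragment (x axis, location). Points are fragments and bars give the mean and SD of 4, 6 and 6 fragments. *Ccnd2* and *Cdk4* rise from nipple to duct to TEB with no overlap of fragments, and *Cdkn1c* lies between 40.8 and 89.2 CPM in TEB fragments against at most 16.0 elsewhere.

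Among the cyclins, *Ccnd2* (chromosome 6, 127125162 to 127152193, minus strand; GRCm38 throughout) separated the 3 places completely. Its level was 67.9, 112, 68.8 and 122 CPM in the nipple fragments N21 to N24. The duct fragments had 289 CPM at the lowest, 378 at the median and 546 at the highest, and the TEB fragments 611, 674 and 838. Every TEB fragment thus stood above every duct fragment, and every duct fragment above every nipple fragment. The means were 92.6 ± 28.3 CPM (SD, n = 4), 391 ± 87.7 (n = 6) and 700 ± 90.1 (n = 6), so the TEB mean was 7.56 times and the duct mean 4.22 times the nipple mean, and the TEB mean 1.79 times the duct mean. The log2 difference of nipple minus TEB was -2.74 (SE 0.23, adjusted p = 4.1e-11), that of nipple minus duct -2.07 (SE 0.22, adjusted p = 9.06e-08) and that of duct minus TEB -0.67 (SE 0.18, adjusted p = 0.0113).

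The share of cells with a *Ccnd2* UMI followed the level. With each cell thinned to 5000 UMIs, 26.8% of nipple, 68.7% of duct and 80.5% of TEB basal-like cells had a *Ccnd2* UMI, against 40.2%, 81.7% and 91.5% before thinning. Among ER+ luminal-like cells, whose *Ccnd2* counts lay below those expected from other wells, the share was 2.11% after thinning and 12.4% before, at a median of 36258.5 UMIs per cell, above the 25193.5 of basal-like cells.

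*Ccnd1* (chromosome 7, 144929931 to 144939925, minus strand), the cyclin most often amplified in breast cancer, was raised in the TEB alone. The nipple fragments had 77.3, 41.4, 94.0 and 107 CPM. Duct fragments had 13.9, 53.5 and 93.2 CPM (lowest, median and highest), and TEB fragments 137, 229 and 364. All 6 TEB fragments were above all others, and nipple and duct fragments overlapped. The TEB mean of 236 ± 87.5 CPM was 2.95 times that of the nipple (log2 of nipple minus TEB -1.38, SE 0.38, adjusted p = 0.00932) and 4.44 times that of the duct (log2 of duct minus TEB -1.99, SE 0.35, adjusted p = 7.82e-05), whereas nipple minus duct did not pass (0.61, adjusted p = 0.451).

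*Ccnd3* (chromosome 17, 47505051 to 47599691, plus strand), the cyclin best known from lymphocytes, was low everywhere. Means were 22.6 ± 19.4 CPM in nipple, 16.1 ± 11 in duct and 18.8 ± 12.4 in TEB fragments, and the fragments of the 3 places overlapped. No location difference was found (adjusted p = 0.881 across locations). These values rest on 53, 44 and 57 UMIs.

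The kinase *Cdk4* (chromosome 10, 127063534 to 127067920, plus strand) followed the order of *Ccnd2*. Nipple fragments had 121, 132, 174 and 165 CPM, duct fragments 199, 232 and 294 (lowest, median and highest) and TEB fragments 350, 587 and 664. Again no 2 places overlapped. The means were 148 ± 25.6, 238 ± 33 and 552 ± 123 CPM, and the TEB mean was 3.73 times the nipple mean and 2.32 times the duct mean. Nipple minus TEB was -1.74 (SE 0.22, adjusted p = 3.15e-07) and duct minus TEB -1.05 (SE 0.19, adjusted p = 9.23e-05) on the log2 scale. Nipple minus duct, at -0.69 (SE 0.21, adjusted p = 0.0477), lay at the threshold, and its adjusted p ran up to 0.176 over 28 alternatives, of which 17 put it above 0.05. After thinning, 38.1% of nipple, 59.1% of duct and 80.5% of TEB basal-like cells had a *Cdk4* UMI (62.9%, 78.3% and 100% before).

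*Cdk6* (chromosome 5, 3341485 to 3531008, plus strand), the other kinase of D cyclins, was next to absent from the counts, with 4 UMIs in all basal-like sums. It could be compared between no 2 places at this depth.

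The promoter of *Cdk4* is shown because its letters stand apart from those of other promoters. Promoter windows (250 bases before to 50 after a start site, RefSeq, GRCm38.p6) were held for 6 of the 9 members, as 9 windows, and *Ccnd1*, *Ccnd2* and *Cdkn1c* had no entry. The E-box CACGTG, the site that MYC and MAX are known to bind, was looked for on both strands, which for this palindrome are the same. It occurs in 2349 of 32851 promoter windows (7.15%) and in 3 of the 9 member windows. *Cdk4* has 4 copies, and 8 of the 32851 windows (0.0244%) hold at least as many. They are printed 5' to 3' with 8 bases on each side and the E-box in capitals, in the order of the position of the E-box from the start site, -172, -118, -98 and -11 bases, on the plus strand of chromosome 10:
chr10:127063355-127063376: cagccagtCACGTGccacacag
chr10:127063409-127063430: caaggggtCACGTGggatagca
chr10:127063429-127063450: caacaggtCACGTGgccgtcag
chr10:127063516-127063537: gtgaagatCACGTGtccagaac

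The single copies in *Cdk6* and *Cdkn2c* are given for comparison, the second on the minus strand:
chr5:3343665-3343686: tgcggcccCACGTGggtgaacc
chr4:109665325-109665346: tgaataatCACGTGtgaatcga

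The E2F motifs TTTGGCGC and TTTCCCGC were in 0 of the 9 member windows, and in 0.514% and 1.07% of all windows. The GC box GGGCGGGG was in 5 of the 9 member windows and in 17.6% of all. These matches describe letters and were not tested as binding sites.

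Of the inhibitors, *Cdkn1a* (chromosome 17, 29090976 to 29100727, plus strand) was measured at high counts in all 3 places and was lowest in the nipple. Nipple fragments had 800, 741, 731 and 519 CPM. Duct fragments had 722, 1123 and 1684 CPM (lowest, median and highest) and TEB fragments 886, 1153 and 1269. All TEB fragments exceeded all nipple fragments, and the duct overlapped both. The duct mean of 1190 ± 359 CPM was 1.70 times the nipple mean of 698 ± 123 (log2 of nipple minus duct -0.78, SE 0.18, adjusted p = 0.00593). The TEB mean of 1111 ± 155 was 1.59 times the nipple mean, at the threshold (log2 of nipple minus TEB -0.50, SE 0.18, adjusted p = 0.0498), with 16 of 28 alternatives above it and an adjusted p of up to 0.209. Duct minus TEB was 0.28 (adjusted p = 0.304).

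*Cdkn1c* (chromosome 7, 143458339 to 143461050, minus strand) was high in TEB basal-like cells. The nipple fragments had 1.89, 7.67, 16.0 and 1.79 CPM, 5 of the 6 duct fragments had 0 and the other 4.17 CPM. TEB fragments had 40.8, 70.5 and 89.2 CPM (lowest, median and highest), all above every other fragment. These levels stand for 14, 3 and 239 UMIs. RNA from other wells, estimated from all pooled cells of the fragment, would give 24.1, 3.82 and 16.9 UMIs. The nipple and duct counts are at or below this estimate and the TEB count is above it. The estimate can run high, as ER- luminal-like cells had 3 UMIs of this gene against 28.3 expected. The TEB mean was 66.1 ± 17.3 CPM. Against the duct, the ratio of pooled rates was 61.7 (exact 95% interval 20.9 to 301), and the fitted log2 difference of duct minus TEB was -5.67 (SE 0.85, adjusted p = 7.65e-06). Against the nipple, log2 of nipple minus TEB was -3.08 (SE 0.80, adjusted p = 0.00539), and nipple minus duct did not pass (2.58, adjusted p = 0.112). Such intervals cover counting error only.

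The share of basal-like cells with a *Cdkn1c* UMI was 12.4% in nipple, 1.74% in duct and 47.6% in TEB fragments, and 3.09%, 0.870% and 23.2% after thinning. In ER- luminal-like cells it was 1.69%, at a median of 26199 UMIs per cell, and 0 of 177 cells after thinning. With thinned counts *Cdkn1b* and *Cdkn1c* fell below the filter on low counts and could not be tested.

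*Cdkn1b* (chromosome 6, 134920401 to 134925513, plus strand) was nearly missing from the nipple. Its level was 0, 0, 6.88 and 0 CPM in the nipple fragments. Duct fragments had 0, 11.5 and 56.4 CPM (lowest, median and highest) and TEB fragments 16.5, 33.4 and 46.0. TEB fragments did not overlap nipple fragments, and the duct overlapped both. These are 3, 41 and 124 UMIs, where 1.37, 8.97 and 10.1 were expected from other wells. The TEB rate was 24.1 times the nipple rate (exact 95% interval 8.06 to 118), and log2 of nipple minus TEB was -4.07 (SE 1.18, adjusted p = 0.013). Nipple minus duct (-3.28, adjusted p = 0.0956) and duct minus TEB (-0.79, adjusted p = 0.621) did not pass.

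*Cdkn2c* (chromosome 4, 109660876 to 109667189, minus strand) gave 0 UMIs in the nipple, 4 in 2 duct fragments and 38 in 4 of 6 TEB fragments, against 1.03, 2.12 and 3.33 expected from other wells. Its TEB rate was at least 7.39 times that of the nipple, taking 3 UMIs over the nipple sums as the floor. The 0 of 97 nipple cells with a UMI allow a share of cells with a UMI of up to 3.73% (exact 95% limit). This limit pools the cells of 4 fragments and leaves out the spread between them. It does not limit the share that expresses the gene. It was too sparse for a fitted test.

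Set against the background of each comparison, 6 members were lower in nipple than in TEB basal-like cells, where 18.7% of tested genes differed in either direction. *Ccnd2*, *Cdk4* and *Cdkn1a* were lower in nipple than in duct (6.29% of genes differed), and *Ccnd1*, *Ccnd2*, *Cdk4* and *Cdkn1c* lower in duct than in TEB (10.4%). The median log2 difference of the 7 tested members was -1.74, -0.69 and -0.79 for nipple minus TEB, nipple minus duct and duct minus TEB, where the median of all tested genes was -0.05, -0.04 and -0.04.

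**Figure D2:**
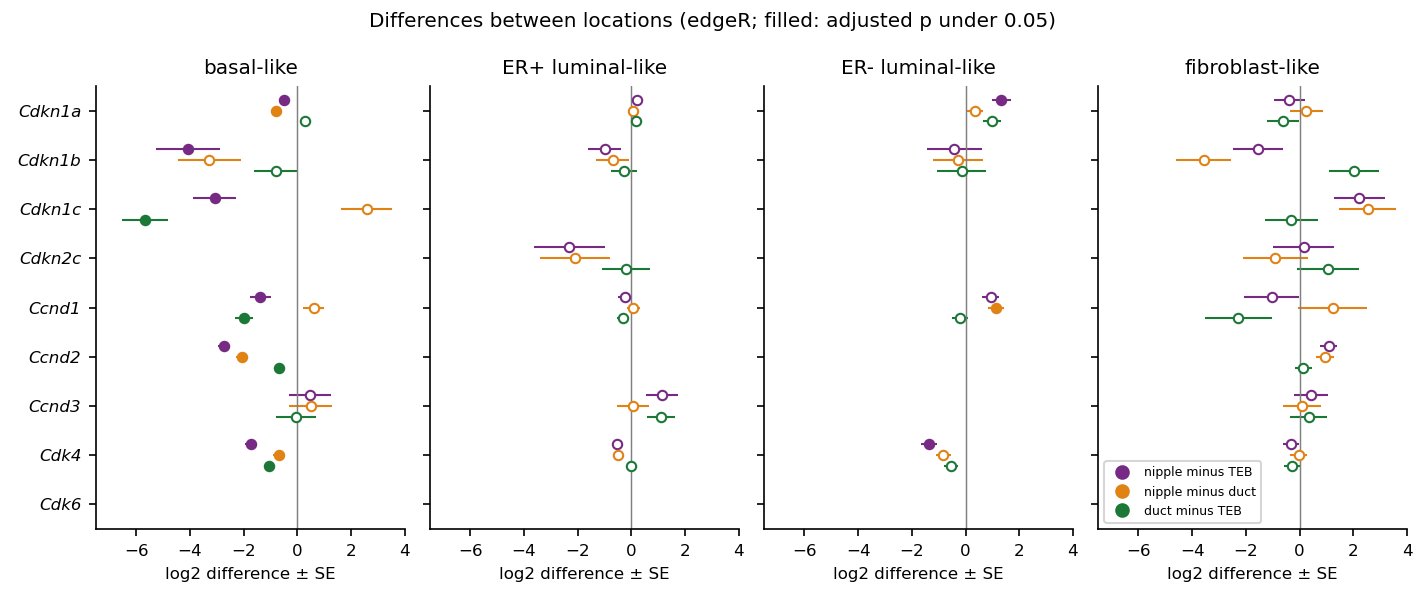
Log2 differences between locations with their SE (x axis) for the members tested in each class (y axis), from edgeR, with filled points for an adjusted p under 0.05. All filled basal-like points lie below 0, where the first-named place is lower, while *Cdkn1a* in ER- luminal-like cells lies above 0 for nipple minus TEB (1.33).

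In ER+ luminal-like cells, the hormone-sensing cells, 6 members were tested and 0 passed across locations by edgeR or DESeq2 (5.56% of 8770 genes did by edgeR), with 1 of the 6 under an unadjusted p of 0.05. The pairs gave no call either, where the share of genes that differed was 5.53% (nipple, TEB), 2.01% (nipple, duct) and 1.65% (duct, TEB). *Cdk4* came nearest. Its nipple fragments had a mean of 210 ± 28.4 CPM, its duct fragments 292 ± 47.2 and its TEB fragments 309 ± 42.1, the fragments overlapped, and log2 of nipple minus TEB was -0.54 (SE 0.18, adjusted p = 0.0695). *Ccnd1* was at 147 ± 38.9, 137 ± 40.4 and 177 ± 49.6 CPM and *Cdkn1a* at 639 ± 220, 603 ± 128 and 557 ± 108 CPM. *Cdk4* passed for nipple minus TEB without T32 (-0.61, adjusted p = 0.0426), with thinned cells (-1.23, adjusted p = 0.00507) and with scaling without regression (-0.60, adjusted p = 0.0344), and *Ccnd2* with no filter on low counts (3.26, adjusted p = 0.0335) and a minimum of 10000 UMIs per cell (3.34, adjusted p = 0.0309).

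The *Ccnd2* counts of ER+ cells need care. Their 92 UMIs compare with 322 expected from other wells, and the 12 UMIs of ER- luminal-like cells with 102. These counts lie below the estimate, which thus runs high here, and cannot be read as expression. *Cdkn1c*, with 42 UMIs in ER+ cells (61.7 expected) and 3 in ER- cells (28.3 expected), was in the same position.

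ER- luminal-like cells, the class that holds the milk-secreting lineage, had 4 members tested, of which 2 passed across locations, *Cdk4* (adjusted p = 0.0156) and *Ccnd1* (adjusted p = 0.0362), where 4.10% of 5706 genes did. *Cdk4* had 180, 154, 106 and 94.7 CPM in the nipple fragments and 369, 384, 273 and 468 CPM in the TEB fragments T32, T33, T34 and T42. The duct fragments had 172 CPM at the lowest, 226 at the median and 326 at the highest. Nipple and TEB fragments did not overlap, and the TEB mean of 374 ± 79.9 CPM was 2.79 times the nipple mean of 134 ± 40.5 (log2 of nipple minus TEB -1.36, SE 0.30, adjusted p = 0.00556). Here 4.57% of genes differed between nipple and TEB. The call was lost with only cells below a limit on proliferation genes described further on (log2 -1.54, adjusted p = 0.0675). With at least 10 cells per sum T33 was the only TEB fragment left, and log2 was -1.43 without a call. Clustered more finely, at a resolution of 1, the ER- class came apart by place, into a cluster with 36 of the 48 nipple, 25 of the 81 duct and 6 of the 49 TEB cells and another with 12, 56 and 43. *Elf5*, the factor of the milk-secreting lineage, averaged 6.11, 42.3 and 67.1 CPM in nipple, duct and TEB ER- cells, and the part of this difference in the results for the class was not tested.

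*Ccnd1* moved the other way in this class. Nipple fragments had 642, 280, 366 and 384 CPM, duct fragments 124, 175 and 350 (lowest, median and highest) and TEB fragments 151, 297, 273 and 232. N22 overlapped the duct and TEB fragments, and the other nipple fragments stood above both. The nipple mean of 418 ± 156 CPM was 2.12 times the duct mean of 197 ± 85.7 (log2 of nipple minus duct 1.15, SE 0.30, adjusted p = 0.0363; 1.63% of genes differed). Nipple minus TEB was 0.93 (adjusted p = 0.109). The call of nipple against duct was lost under 9 of 27 alternatives, which leave out N21, N24, D31, D32, D51, D52 or D61, use only the locations compared or add a block, with an adjusted p of up to 0.245.

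The p21 gene was lower in TEB than in nipple ER- cells. Its duct fragments had 335, 498 and 835 CPM (lowest, median and highest), with a mean of 520 ± 179, and overlapped both other places. Nipple minus duct did not pass (log2 0.34, adjusted p = 0.775). *Cdkn1a* had 501, 914, 484 and 605 CPM in the nipple fragments and 198, 509, 255 and 115 CPM in TEB fragments, and T33 overlapped the nipple. The means were 626 ± 199 and 269 ± 170 CPM, a ratio of 2.32 (log2 of nipple minus TEB 1.33, SE 0.35, adjusted p = 0.0264), although the test across all 3 locations gave an adjusted p of 0.0653. Over 27 alternatives the log2 difference ran from 0.40 to 2.36. The call was lost without N22, N24, T32, T34 or T42. It was also lost with at least 10 cells per sum, which left T33 as the only TEB fragment. No member differed between duct and TEB by edgeR or DESeq2, where 1.14% of genes did by edgeR, with 1 of the 4 under an unadjusted p of 0.05. The basal marker list summed to 1543 to 3232 CPM in nipple ER- cells, 105 to 531 in duct and 24.8 to 107 in TEB ER- cells, with *Krt14* at 1959, 131 and 32.2 CPM, and the part of these cells' basal transcripts in the 3 results was not tested.

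Fibroblast-like cells had 8 members tested and 0 called by edgeR, with 3 of the 8 under an unadjusted p of 0.05. Of 8489 genes 1.70% passed across locations, and for the pairs 1.54% (nipple, TEB), 0.200% (nipple, duct) and 0.271% (duct, TEB). *Cdkn1c* was highest in the nipple, at 192, 461, 505 and 201 CPM, against 0 to 135 in 4 duct fragments and 6.86 to 227 in 5 TEB fragments. The difference of nipple minus TEB did not pass (log2 2.23, SE 0.94, adjusted p = 0.437), and the fragments overlapped. *Ccnd2* averaged 462 ± 124 CPM in nipple, 239 ± 80.6 in duct and 234 ± 92.6 in TEB fragments (log2 of nipple minus TEB 1.08, SE 0.32, adjusted p = 0.0975). DESeq2 called 1 member, *Cdkn1b*, and the fit without a filter on low counts called *Ccnd2*. Most nipple fibroblast-like cells (115 of 116) lay in a cluster led by *Mmp3*, *Apod* and *Penk*, and most TEB cells (64 of 98) in one led by *Pi16* and *C3*, whose part in these values was not tested.

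**Figure D3:**
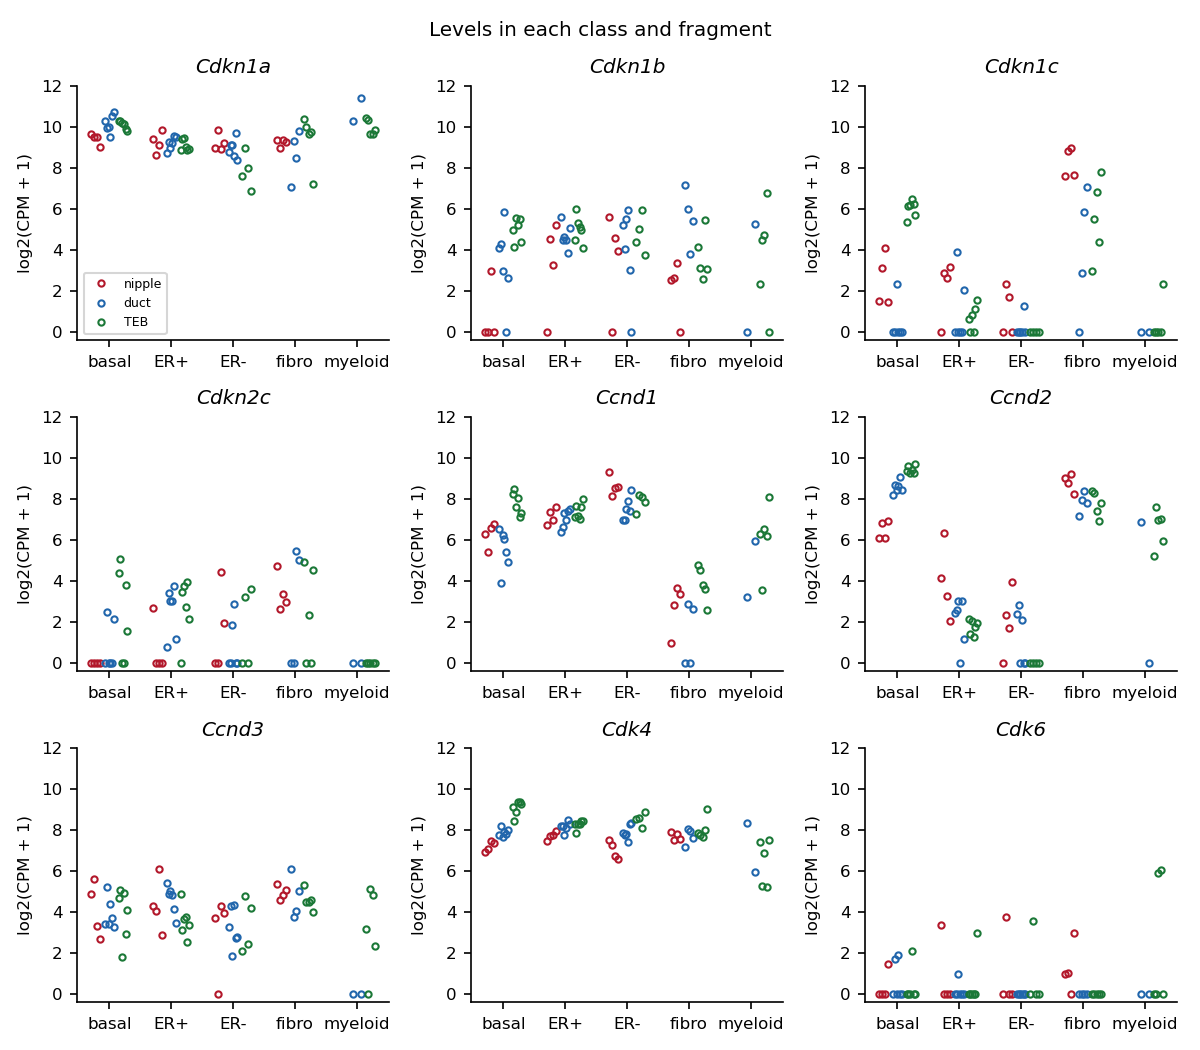
Level of each gene, as log2(CPM + 1) (y axis), in every fragment of the 5 cell classes (x axis), coloured by location. *Ccnd2* lies between 67.9 and 838 CPM in basal-like and 123 and 593 CPM in fibroblast-like fragments and at or below 79.3 CPM in luminal ones, and *Ccnd1* at or below 26.5 CPM in fibroblast-like fragments.

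Across classes, *Ccnd1* and *Ccnd2* had different orders. *Ccnd2* was highest in basal-like cells (mean 432 CPM), followed by fibroblast-like (305), myeloid-like (95.3), ER+ (9.23) and ER- luminal-like cells (2.47). *Ccnd1* had the order ER- (272), ER+ (155), basal-like (128), myeloid-like (85.0) and fibroblast-like cells (9.10), where the 108 fibroblast UMIs fall below the 170 expected from other wells. *Ccnd3* lay between 10.5 and 28.3 CPM in all 5 classes. The fragments of neighbouring classes in the order of means overlapped for every one of the 9 genes.

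Between the 3 epithelial classes, compared within the same fragments, 6 of 18 tests of members passed. *Ccnd2* was higher in basal-like than in ER+ cells by a log2 of 6.18 (SE 0.58, adjusted p = 2.74e-10) and than in ER- cells by 7.48 (SE 0.73, adjusted p = 1.32e-09), both against luminal counts at background. *Ccnd1* was higher in ER- cells than in basal-like cells (log2 of basal minus ER- -1.43, SE 0.27, adjusted p = 7.67e-05) and than in ER+ cells (log2 of ER+ minus ER- -0.84, SE 0.26, adjusted p = 0.012). *Cdkn1a* was higher in basal-like cells than in ER+ (0.75, SE 0.19, adjusted p = 0.0013) and ER- cells (1.16, SE 0.20, adjusted p = 3.91e-05). With only cells below the proliferation limit the first of these did not pass and *Cdkn1b* did, lower in basal-like than in ER+ cells. DESeq2 and the fit with no filter on low counts also called *Cdkn1b* lower there. *Ccnd1* in basal-like against ER+ cells did not pass (-0.59, SE 0.26, adjusted p = 0.0542). It was called lower in basal-like cells by DESeq2, with no filter, with scaling without regression and with at least 10 cells per sum. The background was high, at 46.9% of 7173 genes for basal-like against ER+, 30.1% for basal-like against ER- and 29.1% for ER+ against ER- cells.

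*Cdk4* had means of 333, 278, 251, 238 and 132 CPM in basal-like, ER+, ER-, fibroblast-like and myeloid-like cells, and no difference between a pair of epithelial classes passed (adjusted p = 0.318 for basal-like against ER- cells, where log2 was 0.20, SE 0.15). *Cdkn1a* averaged 1313 CPM in myeloid-like and 666 in fibroblast-like cells, and *Cdkn1b* between 19 and 28.6 CPM in all 5 classes. *Cdkn1c* was highest in fibroblast-like cells (152 CPM, 1980 UMIs against 124 expected from other wells), followed by basal-like cells (26.7 CPM). *Cdkn2c* reached 13.7 CPM in fibroblast-like cells and 3.73 to 5.66 CPM in epithelial classes, and was at 0 UMIs in myeloid-like cells. *Cdk6* was highest in myeloid-like cells, at 17.7 CPM from 14 UMIs in 2 of 7 fragments, and between 0.639 and 1.68 CPM elsewhere.

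Whether a location difference was itself different between classes was tested as an interaction, within fragments. For basal-like and ER+ cells (16 fragments) it passed for *Ccnd2* (adjusted p = 9.25e-06), *Cdk4* (0.00116), *Cdkn1c* (0.0132) and *Ccnd1* (0.0221), where 6.70% of 9377 genes passed. The nipple to TEB difference of *Cdk4* was -1.74 in basal-like and -0.54 in ER+ cells on the log2 scale, and that of *Ccnd1* -1.38 and -0.25. For basal-like and ER- cells (14 fragments) it passed for *Ccnd2* (0.00298), *Cdkn1a* (0.00905) and *Ccnd1* (0.0202), where 2.79% of genes passed. Nipple minus TEB of *Cdkn1a* was -0.50 in basal-like and 1.33 in ER- cells, calls lost under 16 of 28 and 6 of 27 alternatives. That of *Ccnd1* was -1.38 in basal-like and 0.93 in ER- cells, where it did not pass. For *Cdk4* nipple minus TEB was -1.74 in basal-like and -1.36 in ER- cells, the second a call lost under 2 of 27 alternatives, and no difference between these classes was found (adjusted p = 0.898). For ER+ and ER- cells 0 members passed by edgeR (1.89% of genes did), with 2 under an unadjusted p of 0.05, *Cdkn1a* (adjusted p = 0.107) and *Ccnd1* (adjusted p = 0.279), and DESeq2 called *Cdkn1a*. With only cells below the proliferation limit, 3 of the 7 terms still passed (*Ccnd2* and *Cdk4* against ER+ cells and *Cdkn1a* against ER- cells), both *Ccnd1* terms, *Cdkn1c* against ER+ and *Ccnd2* against ER- cells did not, and *Cdkn1a* passed between ER+ and ER- cells.

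**Figure D4:**
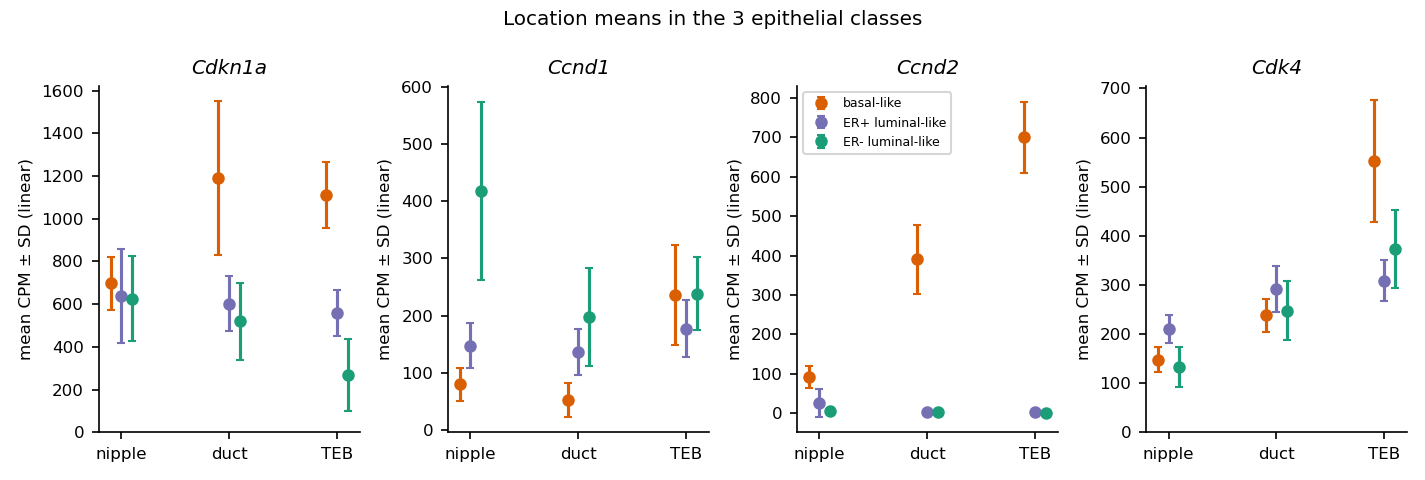
Mean and SD of the CPM (y axis, linear) of 4 genes in nipple, duct and TEB fragments (x axis) of the 3 epithelial classes (coloured points). *Cdkn1a* goes from 626 to 269 CPM between nipple and TEB in ER- cells and from 698 to 1111 in basal-like cells, and *Cdk4* climbs in both.

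Since these genes act at the entry into the cycle, cells with over 1000 CPM of 35 proliferation genes, none of them a member, were set against the other cells of the same class and fragment. The share of cells above this limit was 8.25% in nipple, 12.2% in duct and 37.8% in TEB basal-like cells, 11.6%, 10.9% and 12.2% in ER+ cells and 10.4%, 28.4% and 49.0% in ER- cells. The limit cuts a range, and 70 of the 294 basal-like cells lay between 500 and 2000 CPM of these genes. At 3 cells on each side, 7 fragments could be used in basal-like cells (36 cells above, 101 below), 8 in ER+ cells (38 and 239) and 8 in ER- cells (36 and 64).

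By edgeR no member differed between cells above and below the limit in any of the 3 classes, where 0.546%, 3.65% and 1.32% of genes did. Under an unadjusted p of 0.05 were 2 of 4 tested members in basal-like, 2 of 5 in ER+ and 0 of 3 in ER- cells, and DESeq2 called 0, 1 (*Cdk4*, higher above the limit) and 0. *Cdk4* was higher above the limit in 8 of 8 ER+ fragments (396 ± 85.2 against 273 ± 40.4 CPM, log2 0.45, SE 0.16, adjusted p = 0.116) and in 6 of 7 basal-like fragments (553 ± 332 against 312 ± 206 CPM, log2 0.67, SE 0.37, adjusted p = 0.678). *Ccnd2* was at 423 ± 302 CPM above and 666 ± 401 CPM below in basal-like cells (log2 -0.75, adjusted p = 0.403). *Cdkn1a* was at 422 ± 194 above and 564 ± 79.8 CPM below in ER+ cells (log2 -0.59, adjusted p = 0.151).

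When basal-like sums were made only from cells below the limit, 4 members still passed across locations, *Cdkn1c*, *Ccnd1*, *Ccnd2* and *Cdk4*. *Cdkn1a* did not, and *Cdkn1b* fell below the filter on low counts. Over all genes, 899 passed across locations in that fit, against 1504 in the main one. The nipple to TEB differences of *Ccnd1*, *Ccnd2* and *Cdk4* and the duct to TEB differences of these and *Cdkn1c* passed in that fit too. The nipple to duct calls went from 3 to 1, *Ccnd2*, as *Cdkn1a* (log2 -0.81, adjusted p = 0.0642) and *Cdk4* (-0.62, adjusted p = 0.174) were lost. For nipple minus TEB *Cdkn1c* (-3.04, adjusted p = 0.0562) and *Cdkn1a* (-0.61, adjusted p = 0.145) were lost.

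Genes that act with or after the 9 members were followed in basal-like cells, where the share of all tested genes that differed was 18.7% (nipple, TEB), 6.29% (nipple, duct) and 10.4% (duct, TEB). Of 35 proliferation genes 32 were tested, and 26 were lower in nipple than in TEB, 12 lower in nipple than in duct and 10 lower in duct than in TEB, with medians of -4.53, -1.93 and -1.39. *Cdk1*, the mitotic kinase, averaged 2.35, 34.8 and 167 CPM in nipple, duct and TEB fragments. *Birc5* (survivin) had 0 UMIs in the nipple and was at least 78.3 times higher in the TEB.

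Of the 13 pocket proteins and E2F factors 5 were tested and 1 passed, *E2f8*, a repressor E2F, which had 0 UMIs in nipple and was at least 19.6 times higher in duct and 13.0 times higher in TEB cells. Of the 10 cyclin E, cyclin A and CDK2 genes 6 were tested, and 2 were lower in nipple than in TEB, *Ccna2*, the cyclin of S phase (log2 -3.73, adjusted p = 0.00454), and *Mnat1*, an assembly factor of the CDK-activating kinase (-1.32, adjusted p = 0.0298). Among 8 genes of p27 turnover 7 were tested, and 1 of them was lower in nipple than in TEB and 2 in duct than in TEB. *Cks1b*, the cofactor by which the SKP2 ligase recognizes p27, averaged 138, 163 and 325 CPM and was lower in nipple (log2 -1.06, adjusted p = 0.00247) and duct (-0.83, adjusted p = 0.0102) than in TEB. *Rbx1*, a ring subunit of the same ligase family, was lower in duct than in TEB (-0.58, adjusted p = 0.0155). Of the other INK4 and related inhibitors (*Cdkn2a*, *Cdkn2b*, *Cdkn2d* and *Cdkn3*) 1 of 4 was tested and 0 passed by edgeR (1 under an unadjusted p of 0.05 across locations), and of 12 quiescence factors 7 were tested and 0 passed (1 under an unadjusted p of 0.05).

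Of 18 genes of p53 and its targets, to which *Cdkn1a* is related, 13 were tested in basal-like cells. For nipple minus TEB 2 of the 13, a share below that of all genes, were lower in nipple, *Trp53* itself (-0.79, adjusted p = 0.0291) and *Perp*, a desmosomal protein gene (-0.39, adjusted p = 0.0358). For nipple minus duct *Perp* was lower (-0.46, adjusted p = 0.0334) and *Sesn2* higher in nipple (1.83, adjusted p = 0.0224), together with *Mdm4*, named after its value was seen (3.13, adjusted p = 0.0434). For duct minus TEB *Trp53* was lower (-0.69, adjusted p = 0.0485) and *Mdm2*, the ligase that degrades p53 and also named after its value was seen, higher in duct (0.98, adjusted p = 0.0432). The median of the 13 was -0.39 for nipple minus TEB. In ER- cells 12 were tested, and 4 were higher in nipple than in TEB (4.57% of all genes differed), *Sesn2* (3.74, adjusted p = 0.0172), *Gadd45a* (2.29, adjusted p = 0.032), *Plk2* (1.40, adjusted p = 0.00608) and *Perp* (1.21, adjusted p = 0.0155), also named after their values were seen. The median of the 12 was 0.55, and that of all genes -0.03.

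*Cdkn1c* lies in an imprinted domain of distal chromosome 7 with *Phlda2* and the antisense RNA *Kcnq1ot1*. Of 18 imprinted genes 8 were tested in basal-like cells. *Mest*, an imprinted gene of another chromosome, was at 11.9, 24.8 and 218 CPM in nipple, duct and TEB (log2 of nipple minus TEB -4.08, adjusted p = 1.61e-06). *Phlda2* had 0 UMIs in nipple and was at least 31.6 times higher in duct and 16.3 times higher in TEB cells. *Grb10* was low in the duct alone (3.54 CPM, against 50.05 in nipple and 47.2 in TEB). *Kcnq1ot1*, named after its value was seen, was higher in nipple than in TEB (0.82, adjusted p = 0.035) and duct (0.92, adjusted p = 0.0412). No strand setting of the counting is given in the sources used here, so its reads cannot be told from those of the gene it overlaps.

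Immediate early genes, which respond to dissociation, were also followed because *Cdkn1a* is readily induced by stress. All 16 were tested in basal-like cells, and *Socs3* (1.72, adjusted p = 0.00281), *Klf6* (0.58, adjusted p = 0.00782) and *Dusp1* (1.23, adjusted p = 0.00818) were higher in nipple than in TEB, whereas *Jun* was lower (-1.10, adjusted p = 0.0352; named after its value was seen). Their summed level was 3231 to 3687 CPM in nipple, 2658 to 5092 in duct and 3462 to 6033 in TEB fragments.

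The genes whose log2 CPM over the 16 basal-like fragments was most like that of the 3 strongest members are given as a description, since all fragments share the split by location. For *Ccnd2* these were *Crispld2* (Pearson's r 0.968), the centromere protein gene *Cenpw* (0.958) and *Tmem59l* (0.957). For *Cdk4* they were *Pdk4* (0.915), *Slc6a15* (0.913) and *Sec11c* (0.908). For *Cdkn1c* they were *Gpx2-ps1* (0.914), whose reads may be shared with its parent gene, *Pdia5* (0.911) and *1110038B12Rik* (0.908).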

How the data were processed

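Single cells of 16 fragments were measured by plate-based 3' SMART-seq. The authors deposited a table of raw UMI counts, which were not normalized. Per the labels and the study's methods these were made with Trim Galore, FastQC, UMI-tools, STAR (mm10) and featureCounts, keeping unique alignments, for which no versions are given in the sources used here. The 9 members, gene lists, markers, tests and alternatives were chosen with earlier results of these data known. No value column was left unmatched to a fragment. The 67 spike-in rows (0.758% of UMIs) stayed out of library sizes and tests.

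Cells needed at most 5% spike-in UMIs, 5000 to 120000 UMIs and 200 to 6000 genes. Clusters (Seurat 5.3.0 in R 4.3.3, 2000 variable genes without the members, 14 components, resolution 0.5, with regression of spike-in share, cell cycle scores and gene number) took the class of their leading marker list with at least 3 markers detected in 10% of cells, a rule set after the clusters were seen. Mast cell-like (71) and pericyte-like (19) cells were left out. No doublet caller was run. Well names recur between fragments (33 of 95 in all 16), since fragments reuse the plate barcodes.

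Counts were summed per fragment and class and tested by edgeR 4.0.16 (quasi-likelihood with robust dispersions after filterByExpr and TMM scaling, the 3 locations in the same model, Benjamini-Hochberg over all tested genes, threshold 0.05). Classes, class by location terms and cells above and below the proliferation limit were compared with fragment as a term. Folds from 1 to 3 UMIs are ratios of pooled rates with exact 95% intervals, and those against 0 use a floor of 3 UMIs over the location. RNA from other wells was estimated per class and fragment as the median over cells of summed marker CPM of other cell types, divided by that of all cells of the fragment pooled. Location means of this share were 7.73 to 19.0%. A member's expected UMIs are this share times its pooled rate times the sum. The pool holds the class's own cells, and some counts fall well below their expected UMIs, so these can be too high. The scripts were tested on simulated data. No pair of fragments agreed within sampling noise (chi-square per degree of freedom at least 7.65). The label numbers 31 and 32 occur in both duct and TEB, and fragments with the same number did not deviate together (correlations of -0.0144 to 0.0445).

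Genes named beside the members are up to 3 per list with the smallest p over locations in basal-like cells, and the 3 most correlated with each of the 3 strongest members. Positions are from GENCODE M21, matched by symbol. Alternatives were DESeq2 1.42.0, no low-count filter, RLE scaling, a fit of the 2 places of a pair alone, thinning to 5000 UMIs, a 10% spike-in limit, a minimum of 10000 UMIs, a resolution of 1, scaling without regression, members among the variable genes, at least 10 cells, only cells below the proliferation limit, a limit of 2000 CPM, a replicate block and leaving out each fragment.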

Additional observations from a re-analysis of the deposited data

Results flagged for a closer look

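In 7 of 75 groups of 4 to 6 fragments, 1 fragment stood apart from the others by Dixon's 95% criterion, where chance gives about 1 in 20 groups, or 3.8. *Cdkn1b* was at 6.88 CPM in basal-like cells of nipple fragment N23 and at 0 in the other nipple fragments, and at 56.4 CPM in duct fragment D52 against 0 to 18.5 in the others. *Cdkn1c* was at 4.17 CPM in basal-like cells of D51 and at 0 in the other duct fragments. *Cdkn2c* was at 5.52 CPM in ER+ luminal-like cells of N21 and at 0 in the other nipple fragments. These are counts of few UMIs. *Ccnd3* was at 28.1 CPM in ER+ cells of T31, against 4.83 to 12.7 in the other TEB fragments. *Cdk4* was at 229 CPM in ER+ cells of T32, against 312 to 345, and at 519 CPM in fibroblast-like cells of T42, against 200 to 252.

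The difference between locations was not the same in basal-like as in ER+ luminal-like cells, by an interaction term in edgeR, for *Ccnd2* (adjusted p = 9.25e-06), *Cdk4* (0.00116), *Cdkn1c* (0.0132) and *Ccnd1* (0.0221). Against ER- luminal-like cells, the basal-like difference was distinct for *Ccnd2* (0.00298), *Cdkn1a* (0.00905) and *Ccnd1* (0.0202). For *Cdkn1a* and *Ccnd1* the nipple to TEB difference had opposite signs in basal-like and ER- cells. For *Ccnd2*, and for *Cdkn1c* in ER+ cells, the luminal counts lie at or below those expected from other wells.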

How the results depend on the processing

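The members called between 2 locations gave 441 refitted log2 differences. Of these 389 kept their call and direction, 52 kept the direction without passing and 0 reversed. A resolution of 1 and members among the variable genes gave all 1318 cells their main class. Refits under these settings thus equal the main fit by construction. They are counted here, in the recounts and among the alternatives given per gene. Refits in which a member fell below the filter on low counts are not among the 441, such as *Cdkn1b* and *Cdkn1c* with thinned counts. Of 133 recounts of called members, 115 stayed within 1.5 times. With no filter on low counts the count rose from 0 to 1 across locations in ER+ (*Ccnd2*) and in fibroblast-like cells (*Ccnd2*), from 6 to 12 between epithelial classes, and from 0 to 1 for the proliferation limit in basal-like and in ER+ cells (*Cdkn1a* lower above the limit in both). Thinning gave 1 in ER+ cells (*Cdk4*) and 4 of 6 in basal-like cells. DESeq2 gave 1 across locations in fibroblast-like cells (*Cdkn1b*) and 1 for the limit in ER+ cells (*Cdk4*). With only cells below the proliferation limit the class by location calls fell from 7 to 4, of which 3 were among the 7 and *Cdkn1a* between ER+ and ER- cells was not. In ER- cells at least 10 cells per sum left 1 TEB fragment, T33, so no count is given for it. The 2 calls in ER- cells ranged from 0 to 3 when 1 fragment was left out (0 without N23, N24 or T42, and 1 without N21, D31, D32 or D51). In basal-like cells the range was 5 to 6. The cause was not tested.

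The label numbers were not taken as pairs (2 shared numbers, with no stated meaning). Duct fragments whose numbers share the first digit differed by a chi-square per degree of freedom of 7.65 to 8.98 and those that do not by 7.82 to 17.8, and TEB fragments by 9.14 to 16.5 and 15.7 to 34.3. What the digit marks is not given, and the nipple fragments share 1 digit with no other fragment. In basal-like cells every TEB fragment was above every duct fragment for *Ccnd1*, *Ccnd2*, *Cdk4* and *Cdkn1c*. That T31 to T34 were above D31 and D32, which have the same digit, follows from this. It is no separate test of the digit. With the replicate block 6 members passed in basal-like, 0 in ER+, 1 in ER- and 0 in fibroblast-like cells, where *Cdkn1a* for nipple against TEB in basal-like and *Ccnd1* for nipple against duct in ER- cells lost their calls.

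Counts over all genes moved by more than 1.5 times in these cases. In basal-like cells 1504 genes across locations became 725 with thinning and 899 with only cells below the limit. In ER+ cells 488 became 748 with DESeq2 and 289 with thinning. In ER- cells 234 became 400 with DESeq2, 397 with no filter and 137 with thinning. The fit with at least 10 cells had only T33 in the TEB there, so its count is not given. In fibroblast-like cells 144 became 385, 313 and 680 with DESeq2, no filter and at least 10 cells. Scaling without regression named 1 nipple cell basal-like, too few for a sum. It named a cluster with 105 nipple cells, with *Krt14* among its 10 leading genes, endothelial-like, and left one with 67 TEB cells unnamed. Location results in basal-like cells and class by location results were thus not run under it. Its comparisons between classes had no nipple basal-like sums. Class by location with at least 10 cells and the 2000 CPM limit in ER+ cells left too few fragments and were not run either. Depth limits *Cdk6*, *Cdkn2c* and the nipple values of *Cdkn1b* and *Cdkn1c*, which rest on few UMIs.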
